A study of Mus musculus with 18 samples.

Results

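The comparison set Ctbp1/2 dKO cells, which carry mutations in both CTBP genes, against wildtype cells while both were exposed to the CTBP inhibitor 4-Cl-HIPP. Its members were chosen by sample title and make up 6 of the 18 RNA sequencing samples of the study, 3 of each genotype. Every culture was J774.1, a mouse cell line with macrophage properties, and each of these 6 received 0.25 mM 4-Cl-HIPP for 4 h and no other agent named in the labels. The remaining samples held the same 2 genotypes for 4 h with vehicle, given as PBS/DMSO, or with 1.5 mM MTOB, and 3 samples of each such group were used for the estimate of spread and for values set beside those under 4-Cl-HIPP. By the paper's methods, edited cells were grown out as clones, of which some were found to be wildtype and others knockout, and the number of clones behind the RNA samples of each genotype is not given in the sources used here. The loss of CTBPs and any other difference between the dKO and wildtype cells used cannot be told apart. Library numbers in the labels run through all wildtype samples before all dKO samples, so that genotype and any order of processing cannot be told apart either. The question put by the comparison is which transcripts differ between cells with and without CTBPs while the inhibitor is present.

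CTBP1 and CTBP2 are corepressors that do not bind DNA themselves. Zinc-finger and other transcription factors bring them to genes, where they hold together histone deacetylases, histone demethylases and histone methyltransferases that close chromatin. Their fold is that of D-2-hydroxyacid dehydrogenases and binds NAD(H), and MTOB, a keto acid, and 4-Cl-HIPP, a chlorinated oxime acid, occupy the substrate pocket of this fold.

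Levels are given in TPM, a measure of transcript abundance scaled to the same total in every sample, so the sequencing depth of the samples is unknown. Differences are dKO minus wildtype on the log2(TPM + 1) scale unless a ratio of mean TPM is named, and this scale understates the ratio of genes with low TPM. A gene was called higher or lower when the Benjamini-Hochberg adjusted p from limma was below 0.05 and the difference exceeded 1.5-fold, which is 0.585 on the log2 scale. Such p-values measure the spread between these samples alone, and the labels do not say whether the replicates were separate cultures, although the paper's methods call them biological replicates. Across genes, the Pearson correlation of log2(TPM + 1) was 0.986 to 0.987 between the 3 wildtype samples, 0.985 to 0.986 between the 3 dKO samples, and 0.977 to 0.98 between samples of different genotype, as a description in which genes are not independent replicates.

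The RNA of both edited genes was lower in the dKO samples, by very different amounts. Ctbp1 (ENSMUSG00000037373, minus strand of chromosome 5 from 33401056 to 33432483 in GRCm39) had 204, 216 and 236 TPM in the 3 wildtype samples and 22.4, 31.5 and 19.7 TPM in the 3 dKO samples. The means were 219 ± 16.1 TPM and 24.5 ± 6.18 TPM (SD, n = 3), 8.92-fold lower in dKO cells, with a log2 difference of -3.13 (SE 0.12, adjusted p = 1.29e-10, limma). Every dKO sample lay far below every wildtype sample. Ctbp2 (ENSMUSG00000030970, minus strand of chromosome 7 from 132589292 to 132726083) had 88.0, 89.7 and 89.0 TPM in wildtype and 71.7, 75.6 and 71.0 TPM in dKO cells. Its log2 difference was -0.29 (SE 0.06, adjusted p = 0.00389, limma), which passes the test and lies within 1.5-fold, and the groups did not overlap. A value per gene sums all its transcripts and does not show whether those that remain carry the edit. The paper reports an early stop and frameshift in both genes and the loss of both proteins by western blot, neither of which was analysed here. As the RNA is from whole cultures, a smaller share of cells with a transcript and less of it per cell cannot be told apart. Within 1 Mb of Ctbp1, 29 other genes were tested, of which 1 was called higher and 0 lower, with a median log2 difference of 0.09. That gene, Gm15513, differed by 1.07 (adjusted p = 0.00389, limma) and was named after its value was seen. Within 1 Mb of Ctbp2, 0 of 15 tested genes were called, with a median of -0.06, where 4.69% of all tested genes were called. The macrophage label was checked against defining genes. Csf1r, the receptor for the growth factor that macrophages need, had 830 to 937 TPM in wildtype and 823 to 899 TPM in dKO cells, and the transcription factor gene Spi1 had 211 to 230 and 209 to 230 TPM. Cd68 (544 to 556 and 604 to 611 TPM) and Lyz2 (489 to 537 and 465 to 468 TPM) were abundant in all 6 samples, whereas Mrc1, a receptor of many tissue macrophages, was listed at 0 in all 6. Other markers read for the label were less steady. Msr1 had 57.5 to 67.3 TPM in wildtype and 4.82 to 5.12 TPM in dKO cells. Cd14 had 370 to 388 and 91.6 to 120 TPM, and Adgre1 29.3 to 32.0 and 6.7 to 13 TPM. Itgam had 11.3 to 12.6 and 43.7 to 48.0 TPM, and Fcgr1 33.6 to 49.4 and 39.9 to 42.2 TPM. Msr1, Cd14 and Adgre1 were thus lower and Itgam higher in dKO cells.

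Between the genotypes, 768 of 16383 tested genes were called under 4-Cl-HIPP (4.69%), 509 of them higher in dKO cells (3.11%) and 259 lower (1.58%). With a pseudocount of 5 in place of 1 the number called was 424. Without the limit on fold change, 1667 genes passed the test (10.2%), 1072 higher and 595 lower. In 761 of the 768 called genes the 3 dKO values all lay on the same side of the 3 wildtype values, which was true of 4129 tested genes (25.2%). Separate groups in a called gene, where stated below, are thus nearly always found and add little to its call. The median log2 difference over all tested genes was 0.0046. Among called genes listed above 0 in both groups, the median ratio of mean TPM was 2.45 for the 475 higher genes and 2.35 for the 233 lower genes. Of these, 143 higher and 76 lower genes differed at least 4-fold, and 58 and 38 at least 8-fold. A further 34 higher genes were listed at 0 in all 3 wildtype samples, and 26 lower genes were listed at 0 in all 3 dKO samples. Only 8 of these 34 and 7 of these 26 had a mean normalized count of 10 or more, and the others were weakly expressed. Calls were made in 5.64% of 12268 protein-coding genes, 2.6% of 1502 long noncoding RNA genes and 1.51% of 1788 pseudogenes. Over the 20 chromosomes with at least 100 tested genes, the share called ran from 3.12% to 6.54% and the median log2 difference from -0.0053 to 0.019.

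**Figure D1:**
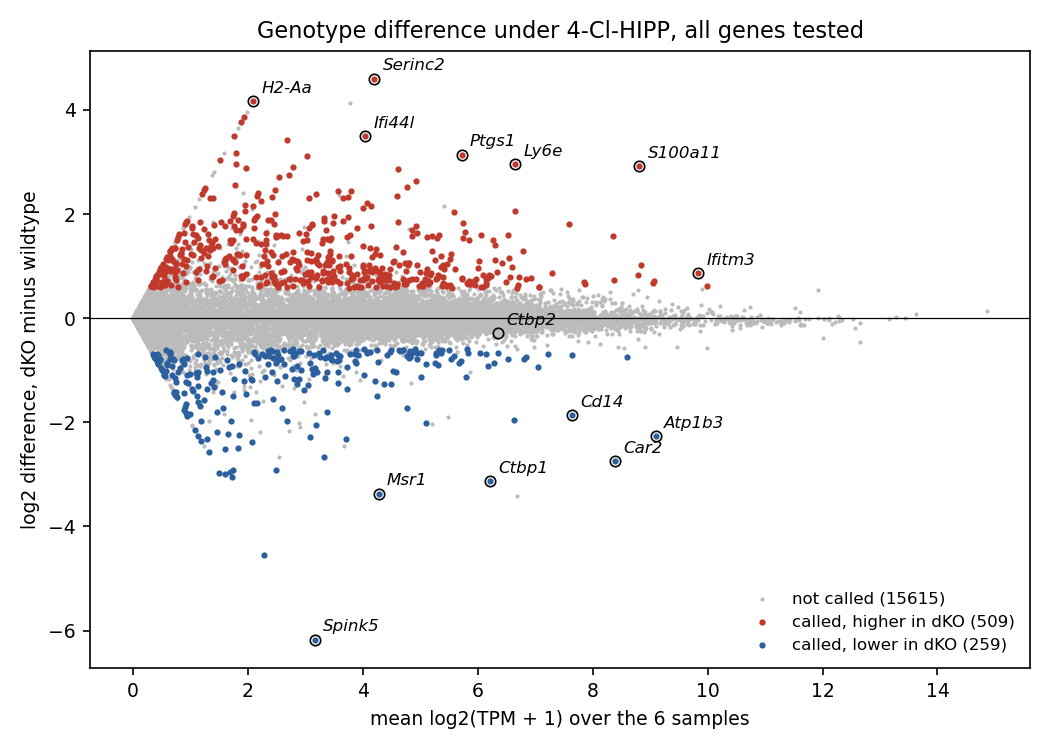
Log2 difference between dKO and wildtype cells under 4-Cl-HIPP, on the log2(TPM + 1) scale, against the mean log2(TPM + 1) of the 6 samples for 16383 tested genes, with 509 genes called higher and 259 called lower marked by colour. Called genes lie on both sides of 0, and Spink5 has the lowest value, at -6.18.

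Genes that dKO cells had gained stood among the largest differences. Serinc2, which encodes a membrane protein of the serine incorporator family, had 3.03, 2.45 and 2.72 TPM in wildtype and 91.7, 84.5 and 91.8 TPM in dKO cells, 32.7-fold higher (log2 difference 4.60, SE 0.23, adjusted p = 1.83e-09, limma). The lowest dKO value exceeded the highest wildtype value many times over. Ptgs1, the constitutive cyclooxygenase that starts prostanoid synthesis, had 16.9, 17.4 and 15.9 TPM in wildtype and 166, 154 and 146 TPM in dKO cells, 9.3-fold higher (3.14, SE 0.07, adjusted p = 8.48e-14, limma). S100a11, a calcium-binding protein gene, had 160, 163 and 163 TPM against 1236, 1243 and 1233 TPM, 7.63-fold higher (2.92, SE 0.05, adjusted p = 4.54e-15, limma). In both genes the samples of a genotype stood close together and the groups were far apart. Ly6e, a membrane-anchored protein gene induced by interferon, had 33.6, 34.9 and 36.2 TPM in wildtype and 264, 301 and 267 TPM in dKO cells, 7.96-fold higher (2.96, SE 0.08, adjusted p = 4.8e-13, limma). Ocstamp, needed for the fusion of osteoclasts and macrophages, had 0.281, 0 and 0.18 TPM against 9.81, 8.38 and 9.81 TPM (3.17, SE 0.13, adjusted p = 1.36e-10, limma). Hmgn3, a nucleosome-binding protein gene, had 1.58, 0.753 and 3.76 TPM against 18.8, 25.4 and 25.4 TPM (3.11, SE 0.41, adjusted p = 7.05e-05, limma), with the wildtype samples spread more widely than in the genes above.

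Some of the largest gains were in genes that wildtype cells did not show, for which no ratio is given. Padi4, an enzyme that converts arginine to citrulline on histones, was listed at 0 in all 3 wildtype samples and had 9.42, 9.98 and 11.6 TPM in dKO cells (adjusted p = 1.35e-11, limma). Pla1a, a phosphatidylserine-specific phospholipase gene, was listed at 0 in wildtype and had 12.5, 11.2 and 14.4 TPM in dKO cells (adjusted p = 6.01e-07, limma). The zinc-finger gene Zfp985 was listed at 0 in wildtype and had 5.00, 8.2 and 9.05 TPM in dKO cells (adjusted p = 3.77e-08, limma). It belongs to a family of similar zinc-finger genes, so the assignment of its reads is uncertain. Each of the 3 genes was present in every dKO sample and in no wildtype sample.

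The losses included genes that were close to absent from dKO cells. Spink5, a serine protease inhibitor best known in skin, had 74.2, 75.6 and 75.9 TPM in wildtype and 0.108, 0 and 0.0542 TPM in dKO cells (-6.18, SE 0.07, adjusted p = 9.05e-18, limma). Pcdhgc3, a gamma protocadherin, had 22.6, 21.2 and 23.0 TPM in wildtype and was listed at 0 in all 3 dKO samples (adjusted p = 9.05e-18, limma). Both transcripts were thus steady in wildtype cells and at or near 0 in dKO cells. Msr1, the class A scavenger receptor that takes up modified lipoproteins, had 57.5, 67.3 and 59.2 TPM against 5.11, 4.82 and 5.12 TPM, 12.2-fold lower (-3.37, SE 0.13, adjusted p = 8.49e-11, limma). Igf1, a growth factor that macrophages secrete, had 7.42, 9.45 and 7.23 TPM against 0, 0.157 and 0.34 TPM (-2.96, SE 0.19, adjusted p = 4.29e-08, limma). Cbr1, a carbonyl reductase, had 9.0, 8.39 and 8.02 TPM against 0, 0.202 and 0.223 TPM (-3.06, SE 0.14, adjusted p = 7.47e-10, limma). Antxr1, an anthrax toxin receptor that binds collagen, fell by 2.99 on the log2 scale from 6.95 to 8.89 TPM to at most 0.133 TPM, and the calcium channel gene Cacna1a fell by 2.92 from 12.2 to 16.1 TPM to at most 1.24 TPM. Rbfox1, a splicing factor gene, fell by 2.91, from 7.11 to 8.87 TPM in wildtype to at most 0.518 TPM. Commd1b had 6.74, 5.7 and 8.44 TPM in wildtype and was listed at 0 in all 3 dKO samples (adjusted p = 0.00127, limma), but its direction was not kept in the other states. Under vehicle and under MTOB Commd1b was listed at 0 in wildtype and had a mean of 0.584 and 8.84 TPM in dKO cells (0.49, adjusted p = 0.703, and 2.78, adjusted p = 0.0022, limma). It is a near-identical copy of another gene, so which copy its reads came from is uncertain.

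**Figure D2:**
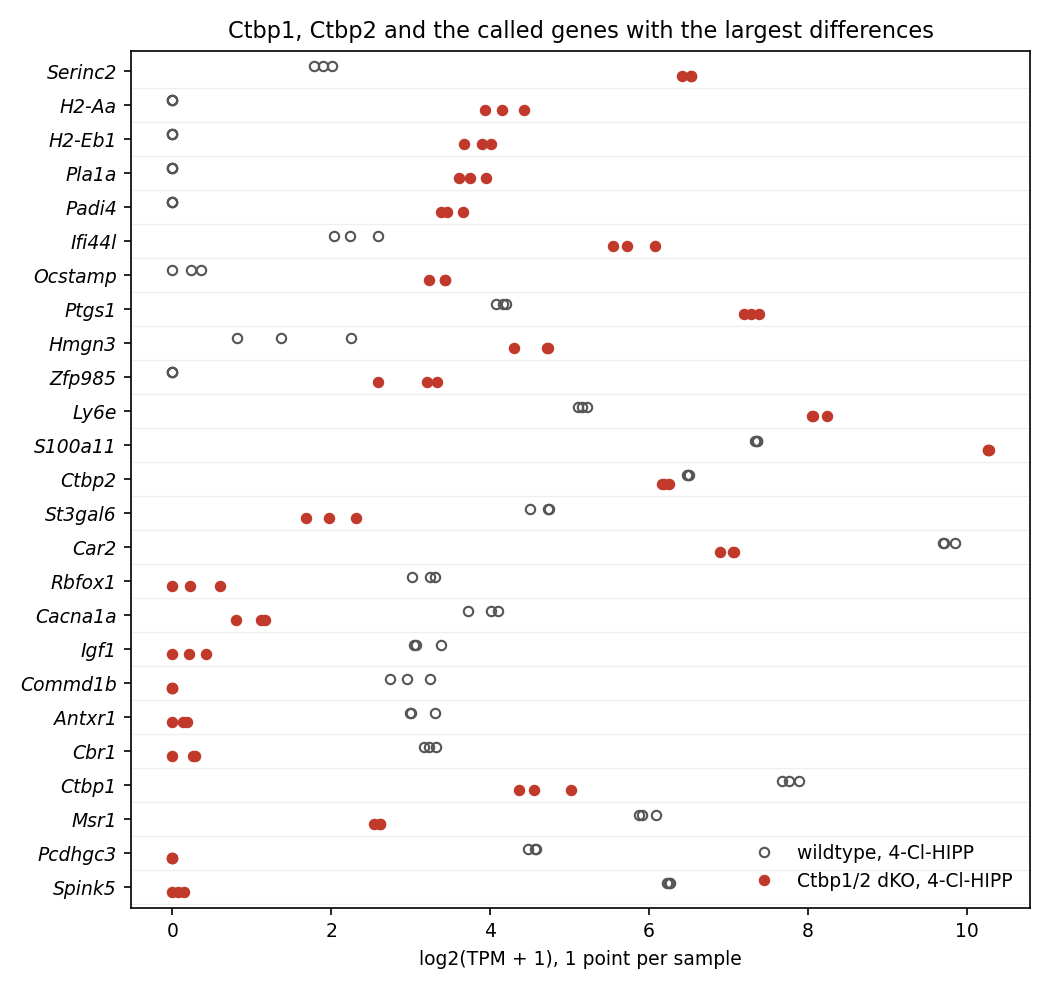
Expression as log2(TPM + 1) of Ctbp1, Ctbp2 and, in each direction, the 12 largest differences among the 634 called genes that had a mean normalized count of 10 or more and no overlap between the genotypes, each dot being 1 of the 3 wildtype or 3 dKO samples under 4-Cl-HIPP. Separate dots were a condition for every gene but Ctbp1 and Ctbp2, and the difference is smallest in Ctbp2.

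Among the most abundant transcripts that changed, differences were mostly smaller. Atp1b3, a beta subunit of the sodium pump, had 1203, 1197 and 1198 TPM in wildtype and 253, 248 and 242 TPM in dKO cells, 4.84-fold lower (-2.27, SE 0.03, adjusted p = 6.55e-17, limma). Car2, a cytosolic carbonic anhydrase, had 830, 840 and 921 TPM against 118, 134 and 132 TPM, 6.75-fold lower (-2.75, SE 0.05, adjusted p = 7.87e-15, limma). Cd14, the lipopolysaccharide co-receptor, had 370, 374 and 388 TPM against 91.6, 120 and 100 TPM, 3.63-fold lower (-1.86, SE 0.07, adjusted p = 7.48e-11, limma). Serinc3, a relative of Serinc2, was 1.69-fold lower at 296 to 301 TPM in dKO against 489 to 528 TPM in wildtype cells, and Cd52, a small surface glycoprotein, was 1.63-fold lower at 154 to 159 against 245 to 272 TPM. Serinc2 and Serinc3 thus changed in opposite directions. In the other direction, S100a6, another calcium-binding protein gene, rose 1.54-fold to 1223 to 1283 TPM, Lmna, the gene of the nuclear lamins A and C, rose 1.6-fold to 643 to 692 TPM, and Ank, a phosphate and citrate exporter gene, rose 1.65-fold to 635 to 734 TPM. The interferon-induced membrane protein gene Ifitm3 had 675, 678 and 683 TPM in wildtype and 1198, 1295 and 1210 TPM in dKO cells, 1.82-fold higher (0.86, SE 0.05, adjusted p = 2.16e-08, limma).

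Many interferon-induced genes were called higher in dKO cells. Of 76 tested members, 44 were called higher and 0 lower (57.9% called, against 4.69% of all tested genes), with a median log2 difference of 0.74 beside 0.0046 over all genes. The share of 4.69% is also the one to read beside the shares of the other lists, given below in percent called. Among protein-coding genes alone it was 5.64%. This list and the others were chosen with earlier results of these data known, so a high share describes a list and is not a test of it. The summed TPM of the list was 1871, 1899 and 1925 in wildtype and 3232, 3572 and 3294 in dKO samples, without overlap. Its members detect viral RNA, block viral replication or carry the interferon signal itself. Ifi44l, whose product dampens the interferon response, had 3.1, 3.73 and 5.02 TPM in wildtype and 45.7, 66.5 and 51.8 TPM in dKO cells, 13.8-fold higher (3.49, SE 0.22, adjusted p = 3.27e-08, limma). Irf7, the transcription factor that amplifies type I interferon production, had 6.27, 7.08 and 8.86 TPM against 29.8, 40.8 and 38.1 TPM, 4.9-fold higher (2.15, SE 0.16, adjusted p = 2.03e-07, limma). Rtp4 had 7.69, 10.2 and 11.6 TPM against 43.3, 66.6 and 53.5 TPM, 5.54-fold higher (2.35, SE 0.17, adjusted p = 1.09e-07, limma). In each of these genes dKO sample 2 was the highest. Oasl2, of the oligoadenylate synthetase family, was 7.96-fold higher at 6.04 to 14.2 TPM against 0.712 to 2.00 TPM (2.24, SE 0.34, adjusted p = 0.000315, limma), although reads of this family's similar members can be misassigned. Oas3, which makes the messenger that activates RNase L, had 14.4 to 16.9 TPM in wildtype and 49.7 to 58.5 TPM in dKO cells (1.77, adjusted p = 3.44e-08, limma), and Rsad2, the antiviral enzyme viperin, had 0.0609 to 0.19 and 2.59 to 3.14 TPM (1.78, adjusted p = 3.02e-06, limma). Both were named after their values were seen. The remaining 32 members were not called. Of the 4 most abundant of them, 2 passed the test within 1.5-fold. Ifi30, a lysosomal thiol reductase, differed by 0.07 and the ubiquitin ligase gene Trim25 by 0.23 without passing, while Parp12 differed by 0.55 (adjusted p = 0.00018, limma). Irf8, a transcription factor of the macrophage lineage, had 33.8 to 39.4 TPM in wildtype and 26.4 to 31.3 TPM in dKO cells, -0.34 on the log2 scale (adjusted p = 0.00343, limma) within 1.5-fold.

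Promoters of the interferon members were searched for the sequence through which interferon acts. The motif was GAAANNGAA, a core of the interferon-stimulated response element, read on both strands from 250 bases before to 50 bases after each start in the RefSeq promoters of GRCm38.p6. It occurred in 8.56% of all 32851 promoters and in 7.44% of those of tested genes. Of the 44 called interferon members, 33 matched a promoter by symbol, and 24 of their 38 promoters held the motif (63.2%). Of the 32 members not called, 27 matched, and 21 of their 33 promoters held it (63.6%), so the share did not set the called members apart, and a list of interferon-induced genes is expected to hold this element. Among all called genes it was in 74 of 537 promoters of higher genes (13.8%) and in 26 of 231 of lower genes (11.3%). The 24 promoters of called interferon members are among those 74, so the share of higher genes in part repeats that list. The motifs in this text and their lengths were chosen after the calls were known. A form of the interferon motif with 1 more A at its end was searched first, and occurred in 3.44% of all promoters, 3.22% of those of tested genes, 8.38% of those of higher genes, 4.33% of those of lower genes, 21 of the 38 of called members (55.3%) and 20 of the 33 of uncalled members (60.6%). The shorter form replaced it with both results seen, for a limit on the length of typed sequences. A match describes the sequence and is not evidence of binding. The promoters of Rsad2 (minus strand, chr12:26456403-26456702), Oas3 (minus strand, chr5:120777610-120777909) and Ifitm3 (minus strand, chr7:141010695-141010994) are given from RefSeq, 5′ to 3′, as members with low, middle and high levels, with each match on either strand in capitals, where matches may overlap.
Rsad2: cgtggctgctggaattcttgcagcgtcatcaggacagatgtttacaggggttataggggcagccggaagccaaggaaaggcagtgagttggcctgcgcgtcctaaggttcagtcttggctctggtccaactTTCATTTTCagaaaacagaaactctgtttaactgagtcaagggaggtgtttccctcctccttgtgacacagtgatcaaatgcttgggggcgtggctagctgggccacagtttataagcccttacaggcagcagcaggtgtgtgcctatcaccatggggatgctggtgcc
Oas3: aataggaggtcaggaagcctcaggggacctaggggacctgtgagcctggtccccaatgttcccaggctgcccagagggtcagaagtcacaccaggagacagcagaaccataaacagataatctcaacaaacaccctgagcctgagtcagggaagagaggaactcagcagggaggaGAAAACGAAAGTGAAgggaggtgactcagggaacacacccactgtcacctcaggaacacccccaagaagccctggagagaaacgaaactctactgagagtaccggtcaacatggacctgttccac
Ifitm3: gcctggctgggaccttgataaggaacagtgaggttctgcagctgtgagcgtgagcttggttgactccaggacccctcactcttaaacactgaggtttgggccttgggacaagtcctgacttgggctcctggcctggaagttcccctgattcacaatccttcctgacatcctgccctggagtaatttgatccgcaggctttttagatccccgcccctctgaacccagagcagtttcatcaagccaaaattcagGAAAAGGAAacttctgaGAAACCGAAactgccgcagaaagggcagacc

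MHC class II presentation loads peptides and displays them to helper T cells. Of 15 tested members, 8 were called higher and 0 lower (53.3% called, against 4.69% of all tested genes), with a median log2 difference of 1.23 that depends on the pseudocount where a member is listed at 0. The alpha chain gene H2-Aa was listed at 0 in all 3 wildtype samples and had 20.5, 14.3 and 16.8 TPM in dKO cells (adjusted p = 2.72e-11, limma). The beta chain gene H2-Eb1 was listed at 0 in wildtype and had 15.1, 13.9 and 11.7 TPM in dKO cells (adjusted p = 7.74e-11, limma). Their partner chains showed the same presence and absence. H2-Ab1 was listed at 0 in wildtype and had 3.71, 4.69 and 5.87 TPM in dKO cells (adjusted p = 2.76e-07, limma), and H2-Ea was listed at 0 and had 4.59, 3.01 and 5.34 TPM (adjusted p = 2.91e-07, limma). The other called members, named after their values were seen, were the peptide-exchange chains H2-DMa (2.51 to 4.65 TPM in wildtype, 12.4 to 16.2 TPM in dKO), H2-DMb1 (0 to 0.37 and 1.87 to 3.07 TPM) and H2-DMb2 (0.15 to 0.67 and 1.7 to 2.62 TPM) and the costimulator Cd80 (0.22 to 0.76 and 2.24 to 4.66 TPM). With a pseudocount of 5 in place of 1, H2-DMb1 and H2-DMb2 no longer exceeded 1.5-fold. Ciita, the master regulator of these genes, named after its values were seen, was listed at 0 in all wildtype samples and had 0.28, 0.355 and 0.838 TPM in dKO cells, which did not pass the test (adjusted p = 0.121, limma). The invariant chain gene Cd74, far more abundant at 251 to 268 TPM in wildtype and 327 to 342 TPM in dKO cells, differed by 0.37 (adjusted p = 0.000128, limma), within 1.5-fold. The protease gene Ctss passed the test in the other direction at -0.21 (adjusted p = 0.00275, limma), within 1.5-fold, and Cd40 by 1.06 without passing the test (adjusted p = 0.0504, limma).

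The 4 class II chain genes lie close together on chromosome 17. The GRCm39 annotation places H2-Ab1 from 34476663 to 34488393, H2-Aa from 34493404 to 34506798, H2-Eb1 from 34504236 to 34535648 and H2-Ea from 34560926 to 34563618. The intervals of H2-Aa on the minus strand and H2-Eb1 on the plus strand overlap, and the library was unstranded, so reads from the overlap cannot be told apart. Class II promoters share an X box and a Y box, and short forms of each, AGCAACNGA and CTGATTGG, were searched on both strands of the same promoters, the X form after a form 2 letters longer had been searched and its results seen. The X form occurred in 440 of 32851 promoters (1.34%) and the Y form in 4.1%, against 0.991% and 5.78% of the promoters of tested genes. Among all called genes the X form was in 0.372% of promoters of higher genes and 1.3% of those of lower genes. The Y form was in 3.91% and 6.06% in turn. Of the 8 called members, 6 matched a promoter, and of their 7 promoters 2 held the Y form and 1 the X form. The promoters of H2-Aa (GRCm38.p6, minus strand, chr17:34287774-34288073) and H2-Eb1 (plus strand, chr17:34305617-34305916) are given from RefSeq because these chains had the highest levels, with the matches in capitals. H2-Eb1 holds both forms, the X form upstream of the Y form.
H2-Aa: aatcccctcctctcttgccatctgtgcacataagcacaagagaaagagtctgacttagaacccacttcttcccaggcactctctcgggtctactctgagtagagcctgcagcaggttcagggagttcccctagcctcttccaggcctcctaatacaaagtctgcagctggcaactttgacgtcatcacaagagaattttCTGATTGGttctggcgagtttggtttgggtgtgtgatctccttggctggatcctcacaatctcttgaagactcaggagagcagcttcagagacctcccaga
H2-Eb1: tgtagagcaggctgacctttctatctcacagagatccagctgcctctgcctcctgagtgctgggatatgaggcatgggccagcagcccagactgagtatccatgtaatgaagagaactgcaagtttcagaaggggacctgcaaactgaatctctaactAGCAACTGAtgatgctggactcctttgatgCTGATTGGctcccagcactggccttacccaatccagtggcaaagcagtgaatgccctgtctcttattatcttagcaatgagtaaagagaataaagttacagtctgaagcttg

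Of 20 tested genes of MHC class I presentation, 2 were called higher and 1 lower (15% called, 2 to 4 higher and 0 to 1 lower under the alternatives, against 4.69% of all tested genes), with a median of 0.28. Without the limit on fold change 11 of the 20 passed the test, as did 10.2% of all tested genes. The nonclassical chain gene H2-T24 rose from 4.48 to 5.88 TPM to 18 to 22.3 TPM (1.83, adjusted p = 4.99e-06, limma) and H2-T23 from 9.93 to 11.4 TPM to 23.6 to 29.1 TPM (1.18, adjusted p = 0.00034, limma). H2-M3 was called lower, with a difference of -0.71, from 11 to 14.6 TPM to 6.54 to 9.44 TPM, a call lost without wildtype sample 3, dKO sample 1 or dKO sample 3 (adjusted p = 0.0573 to 0.0651, limma). H2-T genes resemble each other closely, so reads may be shared between them. The light chain gene B2m (0.20) and the classical chain gene H2-K1 (0.30) differed by less than 1.5-fold.

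**Figure D3:**
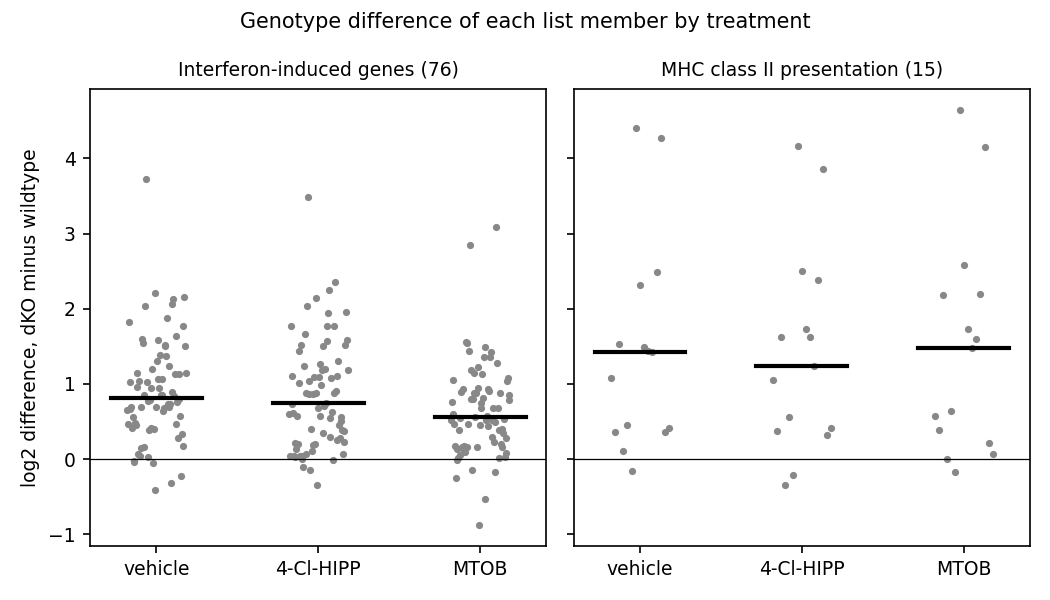
Genotype difference, dKO minus wildtype on the log2(TPM + 1) scale, of each tested interferon-induced gene (76) and MHC class II presentation gene (15) under vehicle, 4-Cl-HIPP and MTOB, each dot being a gene and each bar the median. Medians were above 0 in all 3 states, at 0.82, 0.74 and 0.56 for interferon-induced genes and 1.42, 1.23 and 1.48 for class II genes.

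In the list of Fc, complement and phagocytic receptors, 11 of 32 members were called higher and 2 lower (40.6% called, 7 to 13 higher under the alternatives), with a median of 0.47. The receptors for the complement fragment C5a both rose: C5ar1 had 2.43, 2.29 and 3.68 TPM in wildtype and 19.4, 17.5 and 15.8 TPM in dKO cells (2.31, SE 0.22, adjusted p = 2.57e-06, limma), and C5ar2 had 0.506, 0.557 and 1.06 TPM against 5.91, 4.78 and 4.86 TPM (1.87, SE 0.16, adjusted p = 8.01e-07, limma). C3ar1, the receptor for C3a, had 1.39, 1.76 and 2.2 TPM against 8.08, 9.81 and 9.76 TPM (1.88, SE 0.13, adjusted p = 6.76e-08, limma). None of the 3 receptors overlapped between the genotypes, as was so of nearly all called genes. Msr1 and, named after its value was seen, the inhibitory IgG receptor Fcgr2b were the 2 lower members, the latter at 8.01 to 10.8 TPM in wildtype and 3.12 to 4.19 TPM in dKO cells (-1.17, adjusted p = 0.000122, limma). The common gamma chain gene Fcer1g, the most abundant of the list, differed by -0.10.

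Among integrin and adhesion genes, 12 of 32 were called higher and 0 lower (37.5% called, 8 to 12 higher and 0 to 1 lower under the alternatives), with a median of 0.38. The beta-2 integrins of leukocytes were among them. Itgal, the alpha chain of LFA-1, had 4.51, 4.8 and 5.41 TPM in wildtype and 31.8, 29.6 and 32.4 TPM in dKO cells, 6.38-fold higher (2.45, SE 0.09, adjusted p = 7.61e-11, limma). Itgam, the alpha chain of complement receptor 3, had 11.3, 11.7 and 12.6 TPM against 43.7, 48.0 and 44.7 TPM, 3.83-fold higher (1.85, SE 0.18, adjusted p = 4.24e-06, limma). Itgb2, the shared beta chain, had 52.2 to 56.9 TPM against 92.8 to 94.3 TPM (0.77, adjusted p = 2.79e-05, limma) and was named after its value was seen. Groups were separate in all 3 genes, as in nearly all called genes. Itgb7, the beta chain of a gut-homing integrin, had 2.32, 0.457 and 1.48 TPM against 11.8, 16.0 and 14.2 TPM (2.71, SE 0.28, adjusted p = 7.47e-06, limma), and L1cam, an adhesion molecule best known from neurons, was 3.25-fold higher (1.57). The most abundant member, the alpha-4 chain gene Itga4, had 430 to 487 TPM against 299 to 319 TPM, a difference of -0.56 just within 1.5-fold (adjusted p = 0.000339, limma), and Cd9 differed by 0.28.

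Among macrophage identity genes, 3 of 34 were called higher and 4 lower (20.6% called), with a median of -0.0020. The signalling adaptor gene Tyrobp had a mean of 662 TPM in each genotype. Bhlhe40, a transcription factor gene, had 4.78, 6.07 and 5.93 TPM in wildtype and 28.7, 21.5 and 19.4 TPM in dKO cells (1.86, SE 0.14, adjusted p = 2.96e-07, limma), and Itgam rose as given above. Msr1, Cd14 and Adgre1 fell. Adgre1, the F4/80 antigen, had 32.0, 29.3 and 30.6 TPM against 12.3, 6.7 and 13 TPM (-1.49, SE 0.18, adjusted p = 3.09e-05, limma) and was named after its value was seen. Markers of the same cell type thus differed in opposite directions. For toll-like and other pattern receptors, 2 of 26 were higher and 4 lower (23.1% called, 2 to 4 lower under the alternatives). Clec7a, the beta-glucan receptor Dectin-1, had 0.692, 0.551 and 0.837 TPM against 6.03, 6.83 and 4.79 TPM, 8.49-fold higher (2.02, SE 0.24, adjusted p = 3.25e-05, limma). Clec4d, a C-type lectin receptor gene, fell from 89.8 to 120 TPM to 50.3 to 64.8 TPM (-0.86), while Tlr2 differed by -0.11. Tlr1, its partner in binding lipopeptides, was called lower at -0.76, a call lost without wildtype sample 1, wildtype sample 3 or dKO sample 2 (adjusted p = 0.0622 to 0.0911, limma). Of 22 inhibitory receptors and checkpoint genes, 6 were higher and 2 lower (36.4% called). Lair1, an inhibitory collagen receptor, had 2.17, 1.51 and 0.954 TPM against 19.4, 17.8 and 16.3 TPM, 11.5-fold higher (2.91, SE 0.23, adjusted p = 4.06e-07, limma), and Cd300a rose 2.49-fold. Clec4a3 (3.57 to 5.81 TPM against 0.444 to 1.01 TPM) and Lilrb4a (11.4 to 12.9 against 3.24 to 5.42 TPM) fell, and both have close paralogs to which reads may belong.

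Chemokine genes split, with 5 of 18 higher and 3 lower (44.4% called, 3 to 6 higher under the alternatives). Ccl9 had 43.2, 31.6 and 26.8 TPM in wildtype and 96.2, 98.9 and 94.3 TPM in dKO cells (1.51, SE 0.21, adjusted p = 0.00016, limma). Cxcl14 had 57.6, 65.3 and 51.8 TPM against 131, 108 and 130 TPM (1.06, SE 0.10, adjusted p = 2.69e-06, limma). The inflammatory chemokine gene Ccl4 fell, with 13.3, 12.7 and 9.47 TPM against 4.12, 2.46 and 5.48 TPM (-1.39, SE 0.22, adjusted p = 0.000533, limma). Its neighbour in function, Ccl3, named after its value was seen, fell as well, from 29.3 to 35.8 TPM to 14.6 to 16.0 TPM (-1.01). Ccl22 was at most 0.392 TPM in wildtype and 2.15 to 3.22 TPM in dKO cells, a rise that no longer exceeded 1.5-fold with a pseudocount of 5. None of these genes overlapped between the genotypes, which holds for nearly all called genes. Cytokines and their receptors had 3 of 42 members higher and 2 lower (11.9% called, 1 to 4 higher under the alternatives). Csf3r, the receptor for granulocyte colony-stimulating factor, had 0.979, 0.568 and 1.42 TPM against 9.25, 8.95 and 9.9 TPM, 9.46-fold higher (2.40, SE 0.20, adjusted p = 7.52e-07, limma). Tnf had 48.1, 56.7 and 47.2 TPM against 27.4, 27.5 and 27.1 TPM, 1.85-fold lower (-0.86, SE 0.08, adjusted p = 1.76e-06, limma). Il21r, the interleukin-21 receptor, fell from 3.39 to 4.71 TPM to at most 0.623 TPM (-1.79). Csf2rb, the beta chain shared by several cytokine receptors, was called higher at 1.02, a call lost without wildtype sample 3, dKO sample 1 or dKO sample 3 (adjusted p = 0.0533 to 0.0649, limma). In the NF-kB pathway 1 of 33 members was higher and 1 lower, a share called of 6.06%, close to the 4.69% of all tested genes. Tnfaip2 rose from 21.9 to 30.9 TPM to 53.3 to 57.6 TPM (1.11, adjusted p = 1.62e-06, limma), the inhibitor gene Nfkbia differed by 0.14, the subunit gene Nfkb1 by 0.03, and Tnfaip3 was called lower at -0.74, a call lost without any of wildtype samples 1 and 2 or dKO samples 1, 2 and 3 (adjusted p = 0.0858 to 0.217, limma). The Tnfaip3 call was also lost when replicates of the same number were fitted as a block (adjusted p = 0.0727, limma).

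Prostanoid and leukotriene genes were called higher in 3 of 18 cases and lower in 0 (16.7% called). Beside Ptgs1, the 5-lipoxygenase gene Alox5 had 11.1, 8.65 and 11.4 TPM in wildtype and 66.1, 65.3 and 61.4 TPM in dKO cells, 6.18-fold higher (2.53, SE 0.11, adjusted p = 2.04e-10, limma). Ltc4s, which makes leukotriene C4 from the product of 5-lipoxygenase, had 3.21, 4.06 and 3.62 TPM against 14.6, 11.9 and 13.1 TPM, 3.64-fold higher (1.62, SE 0.31, adjusted p = 0.00256, limma). The 5-lipoxygenase activating protein gene Alox5ap, with 164 to 185 and 212 to 240 TPM, differed by 0.37 (adjusted p = 0.0178, limma), within 1.5-fold, and Ptges3 by -0.03. Among genes of G-protein signalling, 8 of 42 were higher and 1 lower (21.4% called, 4 to 8 higher under the alternatives). The lower gene was Gpr65, a proton-sensing receptor, with 13.2, 10.7 and 11.2 TPM against 1.89, 2.09 and 2.68 TPM, 5.28-fold lower (-1.98, SE 0.17, adjusted p = 7.19e-07, limma). S1pr1, a sphingosine-1-phosphate receptor that guides leukocyte exit from tissues, had 2.73, 4.18 and 4.12 TPM against 16.0, 14.3 and 14.8 TPM, 4.09-fold higher (1.79), and Rgs2, which shortens G-protein signals, rose 3.24-fold (1.65). The groups were separate in these 3 genes, as in nearly all that were called. P2ry12, a receptor for ADP, was called higher at 1.22, a call lost without wildtype sample 1 or 2 or dKO sample 1 or 3 (adjusted p = 0.0504 to 0.0795, limma).

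In the list of ERK feedback and immediate early genes, 5 of 37 were higher and 2 lower (18.9% called, 2 to 6 higher and 1 to 3 lower under the alternatives), with a median of -0.020. Ets2, a transcription factor downstream of ERK, had 46.8, 49.1 and 49.8 TPM in wildtype and 15.7, 12.6 and 13.7 TPM in dKO cells, 3.46-fold lower (-1.73, SE 0.07, adjusted p = 2.46e-10, limma). Dusp4, a phosphatase that switches ERK off, had 5.22, 4.79 and 6.09 TPM against 18.3, 16.9 and 17.2 TPM, 3.25-fold higher (1.54, SE 0.10, adjusted p = 6.72e-08, limma). Both were separate between the genotypes, like nearly all called genes. Fosl1, an AP-1 subunit gene, was called higher at 0.79, a call lost without wildtype sample 1, dKO sample 1 or dKO sample 2 (adjusted p = 0.0531 to 0.0763, limma). Spred1, an inhibitor of the pathway and the most abundant of the list, differed by -0.56 (adjusted p = 1.93e-07, limma), just within 1.5-fold. Of 35 TGF-beta and SMAD genes, 3 were higher and 0 lower (8.57% called), among them the receptor gene Tgfbr1 at 42.6 to 48.8 and 66.8 to 79.6 TPM (0.67, adjusted p = 6.24e-06, limma). Pmepa1, a feedback inhibitor of the pathway, was called at 0.98, a call lost without wildtype sample 1 (adjusted p = 0.0598, limma) or dKO sample 1 (adjusted p = 0.0803, limma). In the BCL2 family, 1 of 18 was higher and 1 lower (11.1% called, 1 to 2 higher and 0 to 1 lower under the alternatives). Bmf, a pro-apoptotic BH3-only gene, had 3.42, 4.72 and 4.55 TPM against 16.9, 16.5 and 21.1 TPM, 4.29-fold higher (1.87, SE 0.13, adjusted p = 6.76e-08, limma). The effector gene Bax differed by -0.30 (adjusted p = 2.51e-05, limma), within 1.5-fold. Bnip3, a mitophagy receptor gene, was called lower at -0.67, and its call was lost without any of wildtype samples 2 and 3 or dKO samples 1, 2 and 3 (adjusted p = 0.0513 to 0.109, limma).

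Enzymes of glycosylation changed in 11 of 44 cases (25% called), 5 higher (2 to 5 under the alternatives) and 6 lower, with a median of 0.062. Galnt6, which starts mucin-type O-glycans, had 5.09, 5.24 and 5.00 TPM in wildtype and 0, 0 and 0.0778 TPM in dKO cells (-2.58, SE 0.11, adjusted p = 1.93e-10, limma). St3gal6, a sialyltransferase, had 21.7, 25.7 and 25.5 TPM against 3.98, 2.93 and 2.23 TPM, 7.99-fold lower (-2.67, SE 0.22, adjusted p = 5.28e-07, limma). Chpf, of chondroitin chain synthesis, fell 2.18-fold (-1.02). Ndst1, which sulfates heparan chains, was called higher at 2.08 to 2.68 TPM against 0.442 to 0.708 TPM (1.15), within 1.5-fold under a pseudocount of 5. In NRF2 and redox genes, 5 of 38 were higher and 2 lower (18.4% called, 1 to 2 lower under the alternatives), with a median of 0.12. Besides the fall of Cbr1, the microsomal glutathione transferase genes Mgst2 (38.5 to 50.3 against 78.9 to 96.3 TPM, 0.96) and Mgst3 (30.4 to 31.1 against 53.4 to 55.3 TPM, 0.80) and the glutaredoxin gene Glrx (0.78) rose. Among 31 genes of the ATF4 and amino acid response, 2 were higher and 4 lower (19.4% called, 1 to 5 lower under the alternatives). Nupr1, a stress-induced chromatin protein gene, had 18.6, 10.1 and 13.8 TPM against 37.2, 36.1 and 38.6 TPM (1.38), and Ddit4, an inhibitor of mTORC1, rose 2.69-fold (1.28), whereas Atf5 fell 1.61-fold (-0.66). Aldh1l2, a mitochondrial folate enzyme gene, was called lower at -0.69, a call lost without wildtype sample 3 or dKO sample 3 (adjusted p = 0.106 and 0.104, limma). Of 20 genes of metallothioneins and zinc handling, 0 were higher and 2 lower (10% called, 1 to 3 lower under the alternatives). Mt2 had 193, 189 and 164 TPM against 95.1, 82.5 and 107 TPM (-0.94, SE 0.12, adjusted p = 7.05e-05, limma), and Mt1, the most abundant, differed by -0.56 (adjusted p = 1.26e-05, limma), just within 1.5-fold. The zinc importer gene Slc39a14 was called lower at -0.62, and fell within 1.5-fold without wildtype sample 3 (-0.57) or dKO sample 1 (-0.49).

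Heme and iron genes had 0 of 24 members higher and 2 lower (8.33% called, 0 to 2 lower under the alternatives). The ferritin heavy chain gene Fth1, by far the most abundant, had 7418, 7821 and 7353 TPM in wildtype and 5400, 5536 and 5542 TPM in dKO cells, -0.45 on the log2 scale (SE 0.04, adjusted p = 1.51e-06, limma) within 1.5-fold and without overlap. The 2 called genes, the iron exporter Slc40a1 (-0.89) and the ferroxidase Cp (-1.03), lost their calls without wildtype sample 3 or dKO sample 2 for Slc40a1 (adjusted p = 0.0653 and 0.0644, limma) and without wildtype sample 1 or dKO sample 3 for Cp (adjusted p = 0.0844 and 0.0783, limma). Genes of lipid handling had 1 of 30 members higher and 1 lower (6.67% called, 1 to 2 higher under the alternatives). Lpl, the lipoprotein lipase gene, had 110, 119 and 115 TPM against 202, 220 and 206 TPM, 1.82-fold higher (0.86, SE 0.06, adjusted p = 6.72e-08, limma), and the nuclear receptor gene Ppard was 2.02-fold lower (-0.93). In glycolysis and hypoxia genes 1 of 37 was higher and 2 lower (8.11% called, 1 to 2 higher and 0 to 2 lower under the alternatives), and the abundant enzymes Pkm (-0.03) and Gapdh (-0.09) differed little. The higher gene, Ndrg1, had 1.65 to 3.22 TPM against 8.16 to 9.65 TPM (1.55, adjusted p = 0.000996, limma). The lower genes were Bnip3 and the hexose transporter gene Slc2a6 (-0.63), which lay within 1.5-fold without dKO sample 1 (-0.58). The lysosomal list had 1 called member of 53 (1.89%, 1 to 2 under the alternatives), the cathepsin gene Ctso, with 0.868 to 1.74 and 5.25 to 5.96 TPM (1.53, adjusted p = 1.16e-05, limma), and a median of 0.17, while 18 passed the test without the limit on fold change. Several lists had 0 called members: 28 genes of sterol synthesis (median 0.026), 34 of G1-S and replication (0.097), 30 of G2-M (-0.13), 14 CDK inhibitors and D cyclins (0.016) and 29 of heat shock and the unfolded protein response (-0.087). In the last of these lists, 0 to 1 members were called lower under the alternatives. Without the limit on fold change, 2, 6, 10, 4 and 7 of these passed the test in turn, beside 10.2% of all tested genes. The summed TPM of the G2-M list was 4327 to 4343 in wildtype and 3929 to 3999 in dKO samples, and that of the G1-S list 3759 to 3830 and 4079 to 4230, without overlap in either. Of 22 translation elongation factors and related genes, 1 was called higher (4.55%), Cpeb3 at 0.79, a call lost in 5 of the 6 fits that left out a compared sample, all but that without dKO sample 1 (adjusted p = 0.0515 to 0.1, limma).

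**Figure D4:**
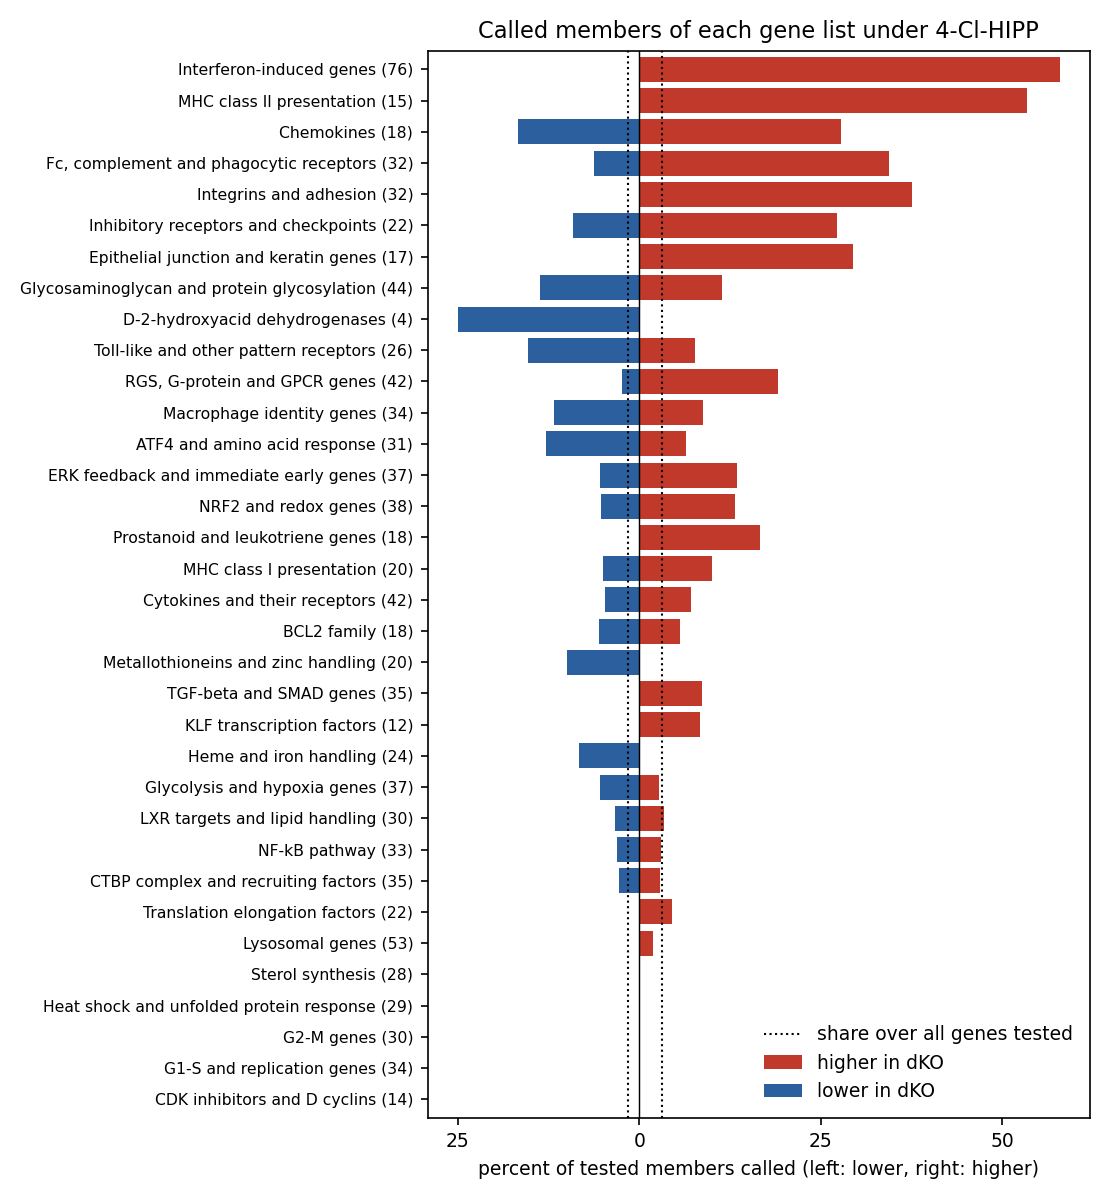
Share of tested members called higher or lower in dKO cells under 4-Cl-HIPP for each gene list, in percent, with dotted lines at the shares over all tested genes (3.11% higher, 1.58% lower). The interferon list has the highest total share among lists with at least 15 members, at 57.9%, followed by MHC class II presentation at 53.3%. The lists were chosen with earlier results of these data known, so this order is a description.

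Of 35 genes of the CTBP complex and its recruiting factors, 1 was called higher and 1 lower, the latter being Ctbp1 (5.71% called, 1 to 2 higher under the alternatives, against 4.69% of all tested genes), and 7 passed the test without the limit on fold change, beside 10.2% of all tested genes, with a median of 0.0047. Zeb2, a zinc-finger repressor that recruits CTBPs, had 30.0, 26.3 and 33.0 TPM in wildtype and 50.3, 61.2 and 64.4 TPM in dKO cells, 1.97-fold higher (0.95, SE 0.18, adjusted p = 0.00208, limma) without overlap. The deacetylase genes Hdac1 (-0.07) and Hdac2 (0.21) and the methyltransferase gene Ehmt2 (0.18) lay within 1.5-fold, as did Pnn, which encodes the CTBP-binding protein pinin (0.0047). CACCTG, an E-box that ZEB proteins bind, occurred in 20.2% of all promoters, 17.7% of those of tested genes, 20.9% of those of higher genes and 20.8% of those of lower genes. In the KLF family, of which only some members recruit CTBPs through a short peptide motif, 1 of 12 genes was called (8.33%, 1 to 2 under the alternatives), Klf6, with 1.3, 2.05 and 2.29 TPM against 7.54, 6.49 and 5.89 TPM, 3.53-fold higher (1.42, SE 0.14, adjusted p = 3.1e-06, limma). CCACACCC, searched as a KLF motif, occurred in 3.56% of all promoters and 3.94% of those of tested genes. It was in 4.66% of those of higher genes and 2.16% of those of lower genes. The related dehydrogenase genes Phgdh, of serine synthesis, and Grhpr, of glyoxylate reduction, differed by -0.08 and -0.24 and overlapped between the genotypes. Epithelial junction and keratin genes, known targets of CTBP repression in other cells, were called higher in 5 of 17 cases and lower in 0 (29.4% called), with a median of 0.13. The count was 3 without wildtype sample 1, dKO sample 1 or dKO sample 3, and 1 with a pseudocount of 5. F11r, a junctional adhesion molecule gene, was called at 0.81, a call lost in each of the 6 fits that left out 1 of the wildtype or dKO samples (adjusted p = 0.0505 to 0.0563, limma). St14, a membrane serine protease of epithelia, had 4.25, 3.86 and 6.21 TPM against 16.7, 19.3 and 16.8 TPM, 3.68-fold higher (1.70, SE 0.12, adjusted p = 9.37e-08, limma). Krt7, a keratin gene, was listed at 0 in wildtype and had 3.04, 2.01 and 1.13 TPM in dKO cells (adjusted p = 0.0053, limma), a difference that fell within 1.5-fold with a pseudocount of 5.

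Markers of other cells and of RNA quality were read beside these groups. T and NK cell markers had 5 tested genes with 0 called, most of the list being absent from the table, and their summed TPM was 0.886 to 8.92 in the 6 samples, Lck being the most abundant. Among B and plasma cell markers, Ighm, of which the cells held a transcript with 141, 143 and 154 TPM in wildtype and 89.1, 83.8 and 78.9 TPM in dKO cells (-0.79, adjusted p = 3.03e-07, limma), made up nearly all of the sums of 142 to 156 and 79.9 to 90.4 TPM. Neutrophil and mast cell markers summed to 0.788 to 3.4 TPM in wildtype and 10.1 to 11.9 TPM in dKO cells, most of it from Csf3r, the called member of 4. Dendritic cell markers had 1 called member of 8, Bst2 (0.60), which is also on the interferon list and lay within 1.5-fold without wildtype sample 1 (0.55) or dKO sample 2 (0.50), with TMM-like (0.58) or median scaling (0.56) and with a pseudocount of 5 (0.58), and 0 to 2 members were called under the alternatives. Stromal, endothelial and erythroid markers summed to at most 3.4 TPM in every sample, and 1 of 9 was called higher, the endothelial marker Pecam1, with 0.144, 0 and 0.421 TPM in wildtype and 1.12, 0.822 and 0.844 TPM in dKO cells (0.71, adjusted p = 0.00478, limma). This call was lost with a pseudocount of 5 (0.19) and when the fit held no other groups (adjusted p = 0.0724, limma). The part of other cells in the MHC class II and interferon differences was not tested. Transcripts encoded in mitochondria summed to 94383 to 96875 TPM in wildtype and 93796 to 102730 TPM in dKO samples, which overlap, and 0 of 15 were called. Replication-dependent histone transcripts, which lack a poly(A) tail, summed to 31.0, 38.7 and 36.9 TPM in wildtype and 44.5, 49.5 and 50.1 TPM in dKO samples without overlap, and 2 of 46 were called higher (4.35%), 1 to 4 under the alternatives. The labels name polyA RNA and the paper's methods depletion of ribosomal RNA, so what these sums say of RNA quality is uncertain. Their part in the other differences was not tested.

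The same genotype contrast was computed under vehicle and under MTOB, with 3 other samples per group of the same 2 genotypes. It gave 791 called genes under vehicle (4.83%) and 811 under MTOB (4.95%), beside 768 under 4-Cl-HIPP. Of the 768, 560 were also called in the same direction under vehicle, 72.9% of the calls under 4-Cl-HIPP and 70.8% of those under vehicle. Under MTOB 517 were, 67.3% and 63.7% of the respective calls. In all 3 states, 336 genes were called higher and 132 lower, with a median size of 1.17 on the log2 scale under 4-Cl-HIPP. Another 153 genes were called under 4-Cl-HIPP and in neither other state, with a median size of 0.77, but the difference from vehicle did not pass the test in any of them and that from MTOB passed in 1, P2ry13 (0.90, adjusted p = 0.0418, limma), a purine receptor gene named after its value was seen, whose call was lost in 10 of the 12 fits without a compared sample (adjusted p = 0.073 to 0.116, limma). The test of the difference between the genotype contrast under 4-Cl-HIPP and that under vehicle called 0 of 16383 genes (limma, smallest adjusted p = 0.166), with 740 at an unadjusted p below 0.05. A genotype difference particular to 4-Cl-HIPP as against vehicle was therefore not detected, which does not show that the contrasts are equal. Against MTOB, 25 genes passed the test of the difference (0.153%), 18 with a higher and 7 with a lower value under 4-Cl-HIPP, and 1166 at an unadjusted p below 0.05. The number was 9 without wildtype MTOB sample 1 and 10 to 12 without any of the 3 wildtype 4-Cl-HIPP samples or dKO 4-Cl-HIPP sample 1 or 3. Pou2f2, a transcription factor gene of lymphoid and myeloid cells, had a genotype difference of 0.0036 under 4-Cl-HIPP and -0.72 under MTOB, a difference between states of 0.72 (SE 0.08, adjusted p = 0.00201, limma). The value under 4-Cl-HIPP changed sign with the scaling and is no direction. Its mean level in wildtype cells was 22.8 TPM under 4-Cl-HIPP and 85.7 TPM under MTOB, against 22.9 and 51.6 TPM in dKO cells. Abr, which encodes a GTPase-activating protein, had 0.14 and -0.50 (0.64 apart, SE 0.07, adjusted p = 0.00201, limma), and the Src-family kinase gene Lyn 0.18 and -0.37 (0.55 apart, SE 0.07, adjusted p = 0.00258, limma). Under vehicle the genotype difference was -0.098 for Pou2f2, 0.13 for Abr and 0.043 for Lyn. In each it lay nearer to that under 4-Cl-HIPP than to that under MTOB. For the lists, the interferon members called higher numbered 44 under 4-Cl-HIPP, 47 under vehicle and 33 under MTOB, where 1 was lower, and the class II members 8, 9 and 8.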

How the data were processed

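RNA of 18 J774.1 samples was sequenced in 6 groups of 3, and 6 samples form the comparison. The authors quantified transcripts with Salmon 1.9.0 and deposited TPM per gene and sample for 18204 genes, whose sums per sample were 999766 to 999897. The deposited signal is the mean normalized count per gene that the authors obtained with DESeq2. The authors' log2 fold changes and adjusted p-values, which compare each inhibitor with vehicle within a genotype, were not used. Sequencing depth is unknown, and the library was unstranded, so overlapping antisense transcripts are not separated.

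The plan allowed for counts or TPM, and as the values were TPM, limma was fitted on log2(TPM + 1) with the 6 group means over all 18 samples, for the 16383 genes whose signal exceeded its 10th percentile (0.222), with a variance trend on the log2 signal. Calls required a Benjamini-Hochberg adjusted p below 0.05 and a 1.5-fold change, and tests of a difference between states the adjusted p alone. Alternatives were other pseudocounts (0.1 and 5), filters, scalings, a replicate block, no trend, the compared groups only, and leaving out each sample.

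Named genes are Ctbp1 and Ctbp2, the 12 called genes per direction with the largest difference among those that had a signal of 10 or more and separate groups, the 5 most abundant called genes per direction, up to 4 called and 4 abundant uncalled members per list, and the 3 genes with the smallest p per difference between states. Others are stated as chosen after their values were seen, and some that the rule includes are not reported here. Members and the 41 lists were chosen with earlier results of these data known. Tools were limma 3.58.1 in R 4.3.3, and pandas 2.3.3, numpy 2.4.6 and matplotlib 3.10.9 in Python 3.11.15. Gene positions are from GRCm39 (16293 of 16383 tested genes matched) and promoters from RefSeq (GRCm38.p6).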

Additional observations from a re-analysis of the deposited data

Results flagged for a closer look

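The test of the difference set apart genes whose contrast between dKO and wildtype cells was not the same under 4-Cl-HIPP and under MTOB. Values are the genotype difference under 4-Cl-HIPP minus that under MTOB on the log2(TPM + 1) scale, and they were 0.72 for Pou2f2 (adjusted p = 0.00201, limma), 0.64 for Abr (adjusted p = 0.00201, limma), 0.55 for Lyn (adjusted p = 0.00258, limma) and -5.76 for Commd1b (adjusted p = 0.00416, limma). These 4 passed the test under all 21 alternatives. The genotype difference under vehicle was -0.098 for Pou2f2, 0.13 for Abr and 0.043 for Lyn, nearer to that under 4-Cl-HIPP than to that under MTOB. For Commd1b it was 0.49, nearer to that under MTOB. Commd1b had a mean of 6.96 TPM in wildtype and was listed at 0 in dKO cells under 4-Cl-HIPP, and was listed at 0 in wildtype and had 8.84 TPM in dKO cells under MTOB. It is a near-identical copy of another gene, and how its reads were assigned was not tested.

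A further 8 named genes also passed this test, each nearer the threshold. The difference was 0.62 for Ets2 (adjusted p = 0.0353, limma), -0.57 for Ptgs1 (adjusted p = 0.0415, limma), 1.43 for Adgre1 (adjusted p = 0.0418, limma) and -1.32 for Rsad2 (adjusted p = 0.0474, limma). It was 0.54 for Spp1 (adjusted p = 0.0474, limma), 0.53 for Irf8 (adjusted p = 0.0474, limma), 0.86 for Oas3 (adjusted p = 0.0498, limma) and 0.90 for P2ry13 (adjusted p = 0.0418, limma). Each of these calls was lost in 10 to 12 of the 12 fits that left out a compared sample, with adjusted p of 0.0546 to 0.145. Fitting replicates of the same number as a block also ended the calls of Ptgs1 (adjusted p = 0.0957, limma) and Irf8 (adjusted p = 0.117, limma). The same block ended those of Oas3 (adjusted p = 0.125, limma) and P2ry13 (adjusted p = 0.0762, limma). The pseudocount moved some of them further. With 5 in place of 1, Ptgs1 had -0.25 (adjusted p = 0.527, limma), and with 0.1 Rsad2 had -1.64 (adjusted p = 0.464, limma) and P2ry13 2.43 (adjusted p = 0.345, limma). Adgre1 differed by -1.49 under 4-Cl-HIPP and -2.92 under MTOB, with a mean of 30.7 and 102 TPM in wildtype and 10.7 and 12.6 TPM in dKO cells. Under vehicle the genotype difference was -1.71 for Ets2, 3.10 for Ptgs1, -1.59 for Adgre1 and 2.07 for Rsad2. It was 0.23 for Spp1, -0.41 for Irf8 and 1.52 for Oas3. In all of these it lay nearer to that under 4-Cl-HIPP than to that under MTOB. In P2ry13 (0.38) it lay nearer to that under MTOB.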

How the results depend on the processing

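Under 4-Cl-HIPP, 768 genes were called. A pseudocount of 5 gave 424, of which 422 were among the 768, and lowers the scale's value for weakly expressed genes by its construction. The other alternatives gave 616 to 864, and leaving out a sample 696 to 748. Fitting replicates of the same number as a block gave 757, although the residuals of such pairs correlated at only -0.0601 to 0.0372 (Pearson r across genes whose signal was 50 or more). With that block, the test of the difference between 4-Cl-HIPP and MTOB gave 19 genes. A pseudocount of 5 gave 426 called genes under vehicle and 420 under MTOB, and leaving out a sample gave 700 to 746 and 725 to 814. The test of the difference between 4-Cl-HIPP and vehicle gave 2 genes with the compared groups only and 0 to 3 with a sample left out (3 without wildtype vehicle sample 2). That between 4-Cl-HIPP and MTOB gave 14 without the variance trend, 14 with the compared groups only and 9 to 21 with a sample left out, and for these the cause was not tested. The count was 9 and 15 without wildtype MTOB sample 1 and 3, 11 to 12 without 1 of the wildtype 4-Cl-HIPP samples, and 12 and 10 without dKO 4-Cl-HIPP sample 1 and 3.

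Of 2438 values for named genes under the alternatives, 2319 kept their direction and their side of the threshold, 89 were no longer past it, 13 passed it and 17 changed sign, all in 4 genes near 0. In Pou2f2 6 did, where the difference was -0.013 with TMM-like scaling, -0.035 with median scaling and -0.028 to 0.061 with a sample left out, the negative values there being -0.0056, -0.012, -0.022 and -0.028. In Pnn 4 did, at -0.012 with TMM-like scaling, -0.034 with median scaling and -0.035 to 0.042 with a sample left out. In Nfkb1 4 did, at -0.013 with median scaling and -0.0070 to 0.085 with a sample left out. In Tyrobp 3 did, with up to 0.015 when a sample was left out. Pnn, Nfkb1 and Tyrobp fell under the rule for named genes, were dropped from an earlier version because of these changes of sign, and were put back. The genes with the largest differences and the most abundant called genes passed the thresholds in all 15 alternatives. The interferon list had 34 to 45 members called higher and the class II list 6 to 9. Counts of several other lists moved as well. Members called higher numbered 1 to 5 for epithelial genes, 2 to 6 for ERK feedback, 4 to 8 for G-protein signalling, 7 to 13 for Fc and complement receptors, 3 to 6 for chemokines, 1 to 4 for cytokines, 2 to 4 for MHC class I, 2 to 5 for glycosylation, 0 to 1 for translation, 1 to 4 for histones and 0 to 2 for dendritic cell markers. Members called lower numbered 1 to 5 for ATF4, 2 to 4 for pattern receptors, 1 to 3 for ERK feedback and for metallothioneins, 0 to 2 for glycolysis and for heme, and 0 to 1 for NF-kB, the BCL2 family, MHC class I and heat shock. Without raw counts, the depth behind low TPM is unknown.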
